A study of Solanum lycopersicum with 18 samples.

Results

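Heat shock proteins, chaperones and heat shock factors were examined in tomato leaves as the genes whose symbol in the deposited table begins with HSP, HSC, HSF, er-sHSP, sHSP, DNAJ, BiP or CPN. The rule uses symbols and no measured values, and it selected 17 of the 23348 genes of the table. Transcripts were measured by RNA sequencing in leaves of 2 tomato lines, Micro-TOM-EX (EX) and Micro-TOM (MT), a dwarf laboratory cultivar. Both lines were sampled at 0, 4 and 12 h, with 3 libraries for each of the 6 groups and 18 libraries in all. The growth protocol says that plants of both lines were kept in soil in a greenhouse with a 16 h day and were cold treated for these times, whereas the stress label of every EX library is cold and that of every MT library is control, 0 h included. The labels do not explain the suffix EX, give no plant age or treatment temperature, and leave unsaid whether replicate libraries were made from different plants. The p-values below therefore rest on library-to-library spread alone, part or all of which may be technical. Hours of treatment and time of day move together in this design and cannot be told apart.

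Chaperones bind unfolded or partly folded proteins, prevent their aggregation and help them reach or regain their shape. HSP70 with its J-domain partners and HSP90 act on client proteins with ATP, HSP100/ClpB pulls proteins out of aggregates, and small heat shock proteins hold unfolding proteins without ATP. Heat shock factors are the transcription factors that switch on these genes in heat, and in plants many of the same genes are also known to follow cold, light and the time of day.

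Expression is given as FPKM, in which fragments are normalized by transcript length and by sequencing depth, as the authors deposited it. The 17 genes are 2 heat shock factors (HsfA1a, HSFA3), 3 HSP90 genes (HSC80, Hsp90-1, HSP90), 3 HSP70 genes (HSP70, hsc70, hsc70.3), hsp100/ClpB, 5 small heat shock proteins (Hsp20.0, HSP17.8, HSP17.4, HSP21, er-sHSP), BiP/grp78, Cpn21 and DNAJ. All 17 passed the filter for testing, which asked that the mean of any group reach 1 FPKM. Of the 17, 13 were at 1 FPKM or more in every library. The other 4 fell under 1 FPKM in some libraries, namely er-sHSP in 16 of 18, HSP17.4 in 10, HSP90 in 8 and HSP21 in 3. er-sHSP (RefSeq symbol ER-SHSP) passed the filter through EX at 0 h alone, so that a fall from that group was favoured by the filter.

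Libraries held an estimated 16100000 to 18500000 fragments, as read from the spacing of the lowest expression values. The 24 leaf photosynthesis genes used as tissue markers were all expressed and summed to between 48230 and 113600 FPKM per library. The markers of other tissues were near 0 only in part. PT4, the one root marker, was at no more than 0.12 FPKM. E8, RIN, ACS2 and ACS4 of ripening fruit were at no more than 0.68 FPKM. LAT52, LAT59 and TAGL1 of pollen and flower were at no more than 0.29 FPKM. The other genes of these lists were expressed, with a mean of at least 1 FPKM for 5 of 9 fruit genes and 1 of 4 pollen and flower genes. The fruit list as a whole summed to 73.55 to 482.4 FPKM, mostly through 3 expansin genes and Psy1. The pollen and flower list summed to 4.14 to 10.54 FPKM, mostly through TTS2. In MT, the first library at 0 h and the first at 4 h were outlying. On the second principal component of all genes tested, which held 18.4% of the variance, they lay at 61.9 and 52.6, against -40.7 to 14.3 for the other 16 libraries. In bulk tissue, fewer cells of a type and less RNA per cell cannot be told apart.

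The most abundant of these transcripts was HSC80, a constitutively expressed cytosolic HSP90, with a mean of 938 FPKM over all libraries. It was followed by the small heat shock protein Hsp20.0 at 152.6 FPKM, DNAJ at 114.2, the chloroplast co-chaperonin Cpn21 at 89.24, Hsp90-1 at 80.02, HSP17.8 at 74.01 and hsc70 at 69.03 FPKM. BiP/grp78 and HSFA3 averaged 42.43 and 42.16 FPKM, and hsp100/ClpB, HsfA1a, hsc70.3 and HSP70 17.7, 12.09, 8.097 and 6.948 FPKM. HSP90, HSP21, HSP17.4 and er-sHSP were the lowest, at 2.44, 1.804, 1.669 and 0.4644 FPKM. The library ranges of neighbours in this order overlapped throughout below HSC80, whose lowest library (693.12 FPKM) lay above the highest library of every other member (322.35 FPKM, for DNAJ).

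The first question was how these transcripts moved with time within each line. Where a chaperone or factor changed, it was mostly lower after 0 h. The factor HSFA3 and the disaggregase hsp100/ClpB fell in both lines at both times, Hsp90-1 fell in MT at both times and in EX at 12 h, and the low-level HSP90 and er-sHSP fell in some of these comparisons. BiP/grp78, the HSP70 of the endoplasmic reticulum, was the one member called higher, in EX at 12 h. Differences were tested with limma on log2(FPKM + 1), with Benjamini-Hochberg adjustment over all 17870 genes tested and a call at an adjusted p under 0.05. The added 1 makes the fold changes of low genes too small.

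In EX, 3 of 17 members (17.6%) were called lower at 4 h than at 0 h and 0 higher, beside 4.99% and 6.30% of all genes tested. At 12 h in EX, 4 members (23.5%) were called lower and 1 (5.88%) higher than at 0 h, beside 6.54% and 10.1% of all genes. In MT, 5 members (29.4%) were called lower at 4 h and 0 higher, beside 7.43% and 6.73% of all genes. At 12 h in MT, 5 members (29.4%) were again called lower and 0 higher, beside 13.2% of all genes called lower and 21.2% called in either direction. One of those called lower in EX at each time is er-sHSP, which the filter favoured. Without it 2 of 16 members (12.5%) were called lower at 4 h and 3 of 16 (18.8%) at 12 h in EX. No test was made of the difference between the members and all genes. The median log2 difference of the 17 members was -0.39 at 4 h and -0.53 at 12 h in EX and -0.73 and -0.60 in MT, beside medians of 0.02, 0.04, -0.01 and -0.06 over all genes. The comparisons of 4 h and of 12 h within a line share their 0 h libraries.

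**Figure D1:**
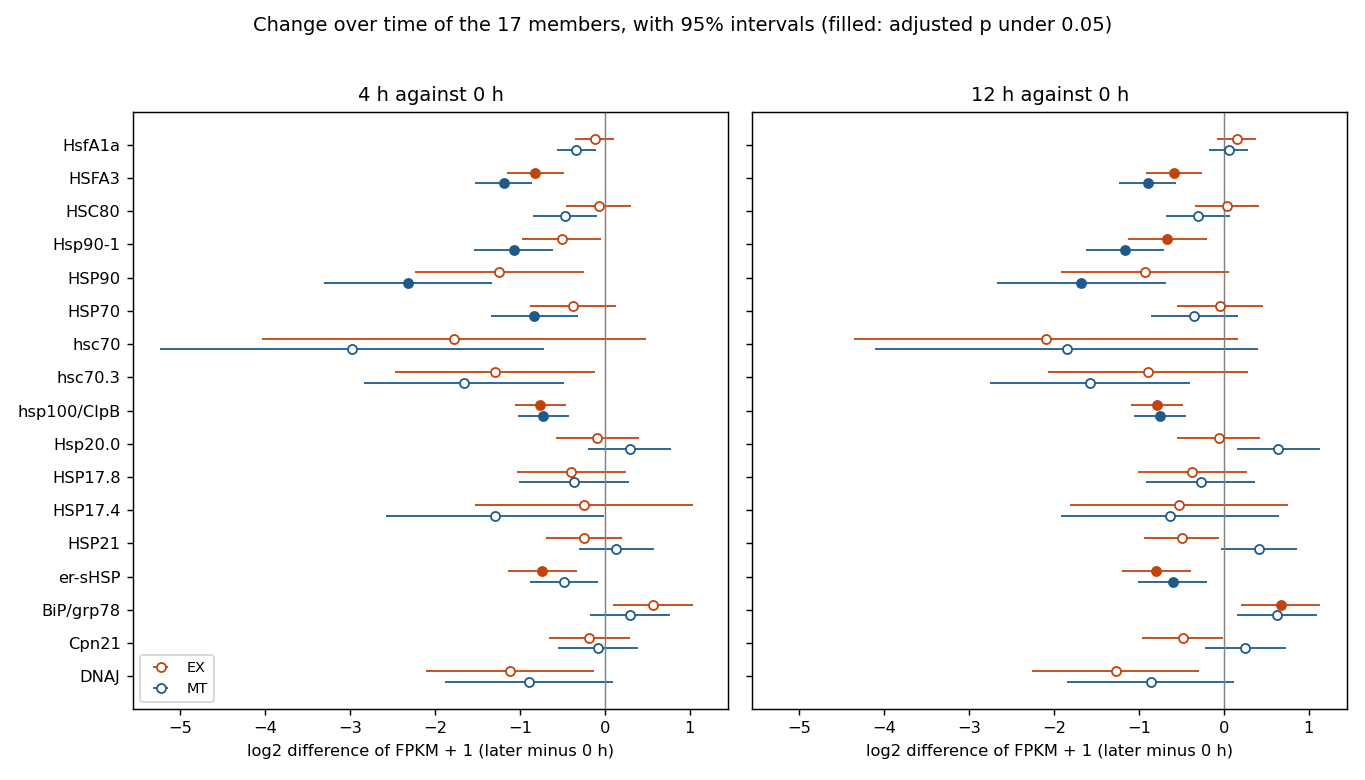
Log2 difference of FPKM + 1 between 4 h and 0 h (left) and 12 h and 0 h (right) for the 17 members, with EX above MT in each row. Points are estimates, bars are 95% intervals from limma, and filled points have an adjusted p under 0.05, among them hsp100/ClpB and HSFA3 in all 4 comparisons.

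HSFA3, at chromosome 9, 2443074 to 2448233, is a heat shock factor that in Arabidopsis acts downstream of the DREB2A regulator and extends the heat response. In EX it had 30.83, 29.32 and 29.51 FPKM at 4 h, against 53.07, 60.77 and 47.03 FPKM at 0 h. At 12 h EX had 32.87, 40.10 and 32.99 FPKM. Every EX library at 4 and 12 h lay below every EX library at 0 h, and its log2 differences were -0.82 (SE 0.16, limma adjusted p = 0.00294) at 4 h and -0.59 (SE 0.16, limma adjusted p = 0.0179) at 12 h. In MT it had 22.60, 37.67 and 29.27 FPKM at 4 h, against 67.52, 62.09 and 74.79 FPKM at 0 h. At 12 h MT had 33.50, 36.15 and 38.71 FPKM. Again no later library reached the lowest library at 0 h, and the log2 differences were -1.19 (SE 0.16, limma adjusted p = 0.000138) at 4 h and -0.90 (SE 0.16, limma adjusted p = 0.00112) at 12 h. The call in EX at 12 h was lost without library 1 or 2 of EX at 0 h and without library 1 or 3 at 12 h (limma adjusted p = 0.0553 to 0.0754).

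HsfA1a, at chromosome 8, 111411 to 116862, is described in tomato as a master regulator of the heat response. It stayed between 9.67 and 14.52 FPKM in all 18 libraries. In MT it averaged 10.31 ± 0.636 FPKM at 4 h and 13.31 ± 1.64 FPKM at 0 h (SD, n = 3 each), and the libraries did not overlap. That log2 difference of -0.33 (95% interval -0.57 to -0.10) was not called (limma adjusted p = 0.0518), but was without library 2 of MT at 0 h (limma adjusted p = 0.0125). EX averaged 10.57 ± 0.783 FPKM at 4 h and 11.55 ± 0.558 FPKM at 0 h. At 12 h it averaged 12.95 ± 0.907 FPKM in EX and 13.84 ± 0.666 FPKM in MT, above every 4 h library of the same line but not called against 4 h (limma adjusted p = 0.673 in EX and 0.129 in MT).

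hsp100/ClpB (RefSeq symbol HSP100/CLPB), at chromosome 2, 50644360 to 50651231, encodes the ATP-driven disaggregase needed for acquired heat tolerance. It had 12.84, 14.44 and 15.81 FPKM in EX at 4 h and 13.83, 16.05 and 12.34 FPKM in EX at 12 h, against 24.49, 24.47 and 25.71 FPKM in EX at 0 h. MT had 12.75, 13.95 and 16.28 FPKM at 4 h and 14.41, 13.76 and 13.84 FPKM at 12 h, against 29.54, 24.40 and 19.70 FPKM at 0 h. In both lines the 0 h libraries stood above all later ones, and those of 4 h and 12 h overlapped. The log2 differences from 0 h were -0.76 (SE 0.14, limma adjusted p = 0.00248) at 4 h and -0.79 (SE 0.14, limma adjusted p = 0.00145) at 12 h in EX. In MT they were -0.73 (SE 0.14, limma adjusted p = 0.00291) at 4 h and -0.75 (SE 0.14, limma adjusted p = 0.00194) at 12 h.

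**Figure D2:**
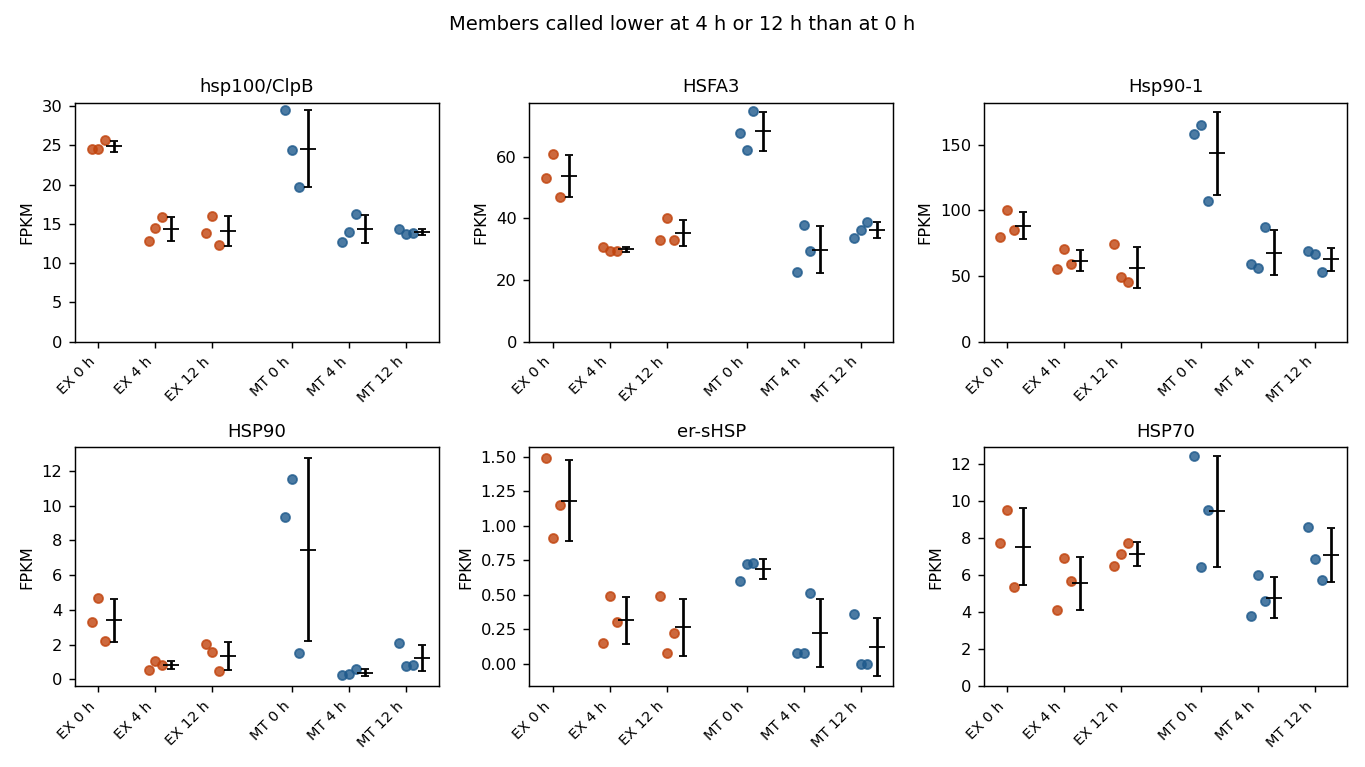
FPKM of the 6 members called lower at 4 h or 12 h than at 0 h, by line and time, with EX left of MT and the hours in order. Dots are libraries and the black bars are the mean and SD of 3 libraries; for hsp100/ClpB the EX libraries at 4 and 12 h lie between 12.34 and 16.05 FPKM, below those at 0 h.

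Among the HSP90 genes, which fold signalling proteins, Hsp90-1 was called lower in both lines and HSP90 in MT, and no test compared the genes with each other. Hsp90-1, at chromosome 12, 5868004 to 5871038, had 59.38, 56.36 and 87.38 FPKM in MT at 4 h and 68.83, 66.64 and 52.77 FPKM in MT at 12 h, against 157.87, 165.20 and 106.90 FPKM in MT at 0 h. No MT library after 0 h reached the lowest one at 0 h, with log2 differences of -1.07 (SE 0.22, limma adjusted p = 0.00381) at 4 h and -1.16 (SE 0.22, limma adjusted p = 0.00182) at 12 h. In EX it had 55.62, 70.39 and 59.18 FPKM at 4 h and 74.41, 49.16 and 45.54 FPKM at 12 h, against 80.06, 99.96 and 84.63 FPKM at 0 h. These groups did not overlap either, and the log2 difference was called at 12 h (-0.66, SE 0.22, limma adjusted p = 0.0487) but not at 4 h (-0.51, SE 0.22, limma adjusted p = 0.163). The call in EX at 12 h was lost when any library of EX at 0 h, or library 2 or 3 at 12 h, was left out (limma adjusted p = 0.0811 to 0.193). Without both outlying MT libraries the MT difference at 4 h was -0.91 (limma adjusted p = 0.0505). All 3035 bases of the gene lie within the span of SlCBL1 on the other strand, at 47.29 to 66.90 FPKM. Spans and not exons were compared, and no source says that strand was used in counting. Whether reads of the pair were mixed was not tested.

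HSP90, at chromosome 6, 25803073 to 25806418, was a low transcript after 0 h in both lines. It had 0.27, 0.30 and 0.59 FPKM in MT at 4 h and 2.11, 0.76 and 0.81 FPKM in MT at 12 h, against 9.33, 11.53 and 1.51 FPKM in MT at 0 h. The third MT library at 0 h was far below its neighbours and overlapped those at 12 h, but lay above every library at 4 h. The log2 differences in MT were -2.32 (SE 0.47, limma adjusted p = 0.00361) at 4 h and -1.68 (SE 0.47, limma adjusted p = 0.0195) at 12 h. In EX it had 0.56, 1.07 and 0.84 FPKM at 4 h and 2.05, 1.55 and 0.46 FPKM at 12 h, against 3.29, 4.67 and 2.22 FPKM at 0 h. The groups did not overlap, and neither difference was called (-1.24, limma adjusted p = 0.11, and -0.93, limma adjusted p = 0.199). Both were called without library 3 of MT at 0 h, which enters the shared estimate of spread (limma adjusted p = 0.0112 and 0.0399). The MT call at 12 h was lost without MT library 1 or 2 of 0 h, or 2 or 3 of 12 h (limma adjusted p = 0.0612 to 0.0849).

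HSC80, at chromosome 7, 67435474 to 67438678, was not called with all libraries. It had 824.69, 826.20 and 705.33 FPKM in EX at 4 h and 816.71, 767.18 and 965.82 FPKM at 12 h, against 811.08, 785.08 and 876.31 FPKM at 0 h, with overlap throughout. In MT it had 693.12, 1085.02 and 952.57 FPKM at 4 h and 1137.66, 906.23 and 981.41 FPKM at 12 h, against 1024.19, 1422.36 and 1303.48 FPKM at 0 h. The largest of these differences was -0.47 in MT at 4 h (95% interval -0.85 to -0.09, limma adjusted p = 0.0946). It was called there without library 1 of MT at 0 h (-0.61, limma adjusted p = 0.0466) or without library 2 of MT at 4 h (-0.61, limma adjusted p = 0.0430). HSC80 made up 90 ± 1.54, 92.6 ± 0.872 and 93.6 ± 2.06% of the summed FPKM of the 3 HSP90 genes in EX at 0, 4 and 12 h, and 89.1 ± 3.15, 92.9 ± 1.87 and 94.0 ± 0.854% in MT (SD, n = 3 each). HSC80 and Hsp90-1 are close relatives, and reads shared between them may have been split by the counting.

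Of the HSP70 genes, which bind short hydrophobic stretches of their clients, one was called. HSP70, at chromosome 11, 10015314 to 10022558, had 3.82, 6 and 4.61 FPKM in MT at 4 h, against 12.46, 6.46 and 9.53 FPKM in MT at 0 h. The groups did not overlap, and the log2 difference was -0.83 (SE 0.24, limma adjusted p = 0.0308). It was lost without library 1 or 3 of either group (limma adjusted p = 0.0757 to 0.119) and without library 1 of both groups together it was -0.50 (limma adjusted p = 0.279). In MT at 12 h it averaged 7.11 ± 1.44 FPKM, and in EX 7.56 ± 2.09, 5.58 ± 1.42 and 7.15 ± 0.641 FPKM at 0, 4 and 12 h (SD, n = 3 each), with no call.

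The widest differences of all belonged to hsc70, at chromosome 6, 47192543 to 47195507, and were not called. It had 16.04, 5.90 and 14.82 FPKM in MT at 4 h and 77.55, 26.94 and 7.77 FPKM at 12 h, against 202.72, 217.14 and 19.38 FPKM at 0 h. In EX it had 12.98, 52.46 and 41.17 FPKM at 4 h and 106.27, 11.14 and 11.46 FPKM at 12 h, against 90.46, 280.29 and 48.06 FPKM at 0 h. Within single groups the libraries differed as widely as the groups did. The log2 difference in MT at 4 h was -2.98 (95% interval -5.24 to -0.72, limma adjusted p = 0.0749), with no overlap between the groups. Without library 3 of MT at 0 h it was called (-4.10, limma adjusted p = 0.0198).

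hsc70.3, at chromosome 4, 3894989 to 3900174, had 3.22, 2.91 and 4.42 FPKM in MT at 4 h and 5.35, 5.04 and 1.73 FPKM at 12 h, against 28.40, 13.65 and 5.49 FPKM at 0 h. Both later groups lay below the 0 h libraries and neither was called (-1.66, limma adjusted p = 0.0587, and -1.58, limma adjusted p = 0.0544). Both were called without library 3 of MT at 0 h (-2.21 and -2.14, limma adjusted p = 0.0182 and 0.0176) and under some other alternatives. In EX it had 2.37, 7.20 and 4.49 FPKM at 4 h and 11.31, 4.44 and 4.19 FPKM at 12 h, against 11.33, 23.93 and 6.27 FPKM at 0 h. These groups overlapped, and neither difference was called (limma adjusted p = 0.163 and 0.301).

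BiP/grp78, at chromosome 8, 65489310 to 65493432, guides proteins that enter the secretory pathway. It had 64.22, 38.09 and 55.51 FPKM in EX at 12 h, against 26.68, 41.91 and 29.13 FPKM in EX at 0 h. One EX library at each time overlapped the other group, and the log2 difference was 0.67 (SE 0.22, limma adjusted p = 0.0494). It was lost without library 1 or 3 of either group (limma adjusted p = 0.151 to 0.190) and with the genes scaled by median-of-ratios factors (limma adjusted p = 0.0724). EX at 4 h had 47.93, 45.82 and 50.19 FPKM, above all EX libraries at 0 h, without a call (0.57, limma adjusted p = 0.120). MT had 33.64, 35.64 and 49.79 FPKM at 4 h and 55.96, 51.39 and 41.57 FPKM at 12 h, against 30.08, 39.98 and 26.23 FPKM at 0 h, and the 12 h difference of 0.62 was not called (limma adjusted p = 0.0557). Without library 2 of the 0 h group, the differences in EX at 4 h and in MT at 12 h were called (limma adjusted p = 0.0445 and 0.0219).

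Of the small heat shock proteins, er-sHSP was the one called over time with all libraries. er-sHSP, at chromosome 11, 10856089 to 10856984, is the form of the endoplasmic reticulum, and rested on 0 to 20 estimated fragments per library. It had 0.15, 0.49 and 0.30 FPKM in EX at 4 h and 0.49, 0.08 and 0.22 FPKM in EX at 12 h, against 1.49, 0.91 and 1.15 FPKM in EX at 0 h. All later EX libraries lay below those at 0 h, with log2 differences of -0.73 (SE 0.19, limma adjusted p = 0.0202) at 4 h and -0.79 (SE 0.19, limma adjusted p = 0.00999) at 12 h. With every gene of the table tested and no filter, the adjusted p was 0.0118 and 0.00564. MT had 0.08, 0.08 and 0.51 FPKM at 4 h, and 0.36 FPKM in one library at 12 h, against 0.60, 0.72 and 0.73 FPKM at 0 h.

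The other 2 MT libraries at 12 h listed er-sHSP at 0, which at their depth allows up to 0.230 and 0.222 FPKM (3 fragments, counting error only). The MT difference was -0.60 at 12 h (SE 0.19, limma adjusted p = 0.0357) and -0.48 at 4 h (limma adjusted p = 0.109, not called). The EX call at 4 h was lost without library 1 or 3 of either group (limma adjusted p = 0.0550 to 0.101), and that at 12 h without library 1 of EX at 0 h (0.0540). The MT call was lost without any one MT library of 0 h, or without library 2 or 3 of 12 h (0.0555 to 0.119).

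Hsp20.0 and HSP17.8 are class I cytosolic small heat shock proteins whose genes lie in the same stretch of chromosome 6, at 47563995 to 47564804 and 47546593 to 47547381. Hsp20.0 had 95.75, 137.59 and 155.57 FPKM in MT at 4 h and 209.00, 151.00 and 134.63 FPKM in MT at 12 h, against 116.22, 129.58 and 73.36 FPKM in MT at 0 h. All MT libraries at 12 h were above those at 0 h, with a log2 difference of 0.64 that was not called (95% interval 0.15 to 1.13, limma adjusted p = 0.0580), but was without library 2 of MT at 0 h (limma adjusted p = 0.0253). In EX, Hsp20.0 stayed between 142.32 and 207.69 FPKM at all times. HSP17.8 ranged from 54.73 to 113.61 FPKM in EX and from 37.51 to 91.57 FPKM in MT, with overlapping times and no call.

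HSP17.4, at chromosome 8, 50913023 to 50913685, was low and scattered. EX had 1.91, 3.79 and 0.82 FPKM at 0 h, 0.42, 2.82 and 1.80 FPKM at 4 h, and 2.58, 0.54 and 0.53 FPKM at 12 h. MT had 3.84, 5.23 and 0.21 FPKM at 0 h, 0.43, 0.23 and 0.42 FPKM at 4 h, and 3.51, 0.54 and 0.42 FPKM at 12 h. The groups overlapped in every comparison of times, and none was called with all libraries. Without library 3 of MT at 0 h, the difference in MT at 4 h was called (-2.02, limma adjusted p = 0.0298).

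DNAJ, at chromosome 4, 65476832 to 65477558, carries the name of the J-domain co-chaperones that stimulate HSP70. It had 97.46, 59.68 and 119.00 FPKM in EX at 4 h and 104.30, 79.45 and 60.01 FPKM at 12 h, against 204.07, 322.35 and 109.38 FPKM at 0 h. The 12 h libraries lay below all at 0 h, and the log2 difference of -1.27 was not called (95% interval -2.26 to -0.29, limma adjusted p = 0.0740), but was without library 3 of EX at 0 h (limma adjusted p = 0.0375). MT had 142.36, 47.57 and 54.49 FPKM at 4 h and 94.93, 89.12 and 46.88 FPKM at 12 h, against 145.85, 192.59 and 86.46 FPKM at 0 h, with overlap. Cpn21, at chromosome 7, 55361229 to 55363601, ranged from 67.34 to 142.59 FPKM in EX and from 64.09 to 117.60 FPKM in MT, with no call over time.

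Between 12 h and 4 h, 0 members were called by limma in either line, beside 0.201% of all genes in EX and 0.554% in MT. At an unadjusted p under 0.05 there was 1 member in each line, HsfA1a in both, beside 6.63% of all genes in EX and 12.4% in MT. The levels reached at 4 h were thus not called different from those at 12 h for any member, which does not show that they were equal.

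The second comparison set EX against MT at each time. HSP21 was the one member called with all libraries, and it was higher in EX at 0 h. That is 1 of 17 members (5.88%) called higher and 0 called lower, beside 0.979% and 2.19% of all genes. HSP21, at chromosome 3, 52352272 to 52353217, is the chloroplast small heat shock protein, known to protect photosystem II and thylakoid membranes.

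HSP21 had 2.15, 2.76 and 3.69 FPKM in EX, against 0.96, 1.70 and 0.55 FPKM in MT, at 0 h. These values rest on few estimated fragments, 27, 34 and 48 in EX and 12, 22 and 7 in MT. All EX libraries were above all MT libraries, with a log2 difference of 0.92 (SE 0.21, 95% interval 0.48 to 1.36, limma adjusted p = 0.0343). At 4 h the values were 2.12, 1.97 and 2.62 FPKM in EX and 0.89, 1.11 and 1.73 FPKM in MT, again with no overlap, and at 12 h 2.09, 1.61 and 1.45 FPKM in EX and 1.55, 1.55 and 1.98 FPKM in MT. The difference was 0.54 at 4 h (unadjusted p = 0.0202, not called) and 0.01 at 12 h (95% interval -0.43 to 0.45), and the lines overlapped at that time. Over time, the EX libraries at 12 h lay below those at 0 h without a call (-0.50, 95% interval -0.94 to -0.05). The call at 0 h was lost without any one library of EX, or without library 1 or 3 of MT (limma adjusted p = 0.0537 to 0.150), and without both outlying MT libraries (limma adjusted p = 0.0855). Without those 2, HSC80 was the member called at 0 h, lower in EX (-0.73, limma adjusted p = 0.0316).

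At 0 h the libraries of EX and MT did not overlap for 6 of the 17 members, HSP21 included, beside 21.6% of all genes tested. The 6 include er-sHSP, which passed the filter through EX at 0 h alone, so that a higher level there than in MT was favoured. Hsp20.0 had 191.68, 168.01 and 170.36 FPKM in EX at 0 h, against 116.22, 129.58 and 73.36 FPKM in MT at 0 h, a log2 difference of 0.76 (95% interval 0.28 to 1.25, limma adjusted p = 0.0745) that was called without library 2 of MT at 0 h (limma adjusted p = 0.0202) or library 1 of MT at 4 h (0.0496). HSC80 averaged 824.2 ± 47.0 FPKM in EX and 1250 ± 204.4 FPKM in MT at 0 h (SD, n = 3 each), a difference of -0.59 (limma adjusted p = 0.0769) that was also called without library 1 of MT at 4 h alone (0.0396). Hsp90-1 averaged 88.22 ± 10.42 FPKM in EX and 143.3 ± 31.76 FPKM in MT, a difference of -0.67 (limma adjusted p = 0.0903). HSFA3 was also lower and er-sHSP higher in every EX library than in every MT library at 0 h, uncalled.

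At 4 h and at 12 h, 0 members were called between EX and MT by limma, beside 0.297% and 0.134% of all genes. At an unadjusted p under 0.05 there was 1 member at 4 h, HSP21, and 0 at 12 h, beside 14.1% and 3.35% of all genes. For hsp100/ClpB the intervals were narrow, with log2 differences of 0.04 (95% interval -0.26 to 0.34) at 0 h, 0.01 (-0.30 to 0.31) at 4 h and -0.00 (-0.30 to 0.30) at 12 h. For hsc70 they were too wide to be informative, 0.16 (-2.10 to 2.42) at 0 h.

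**Figure D3:**
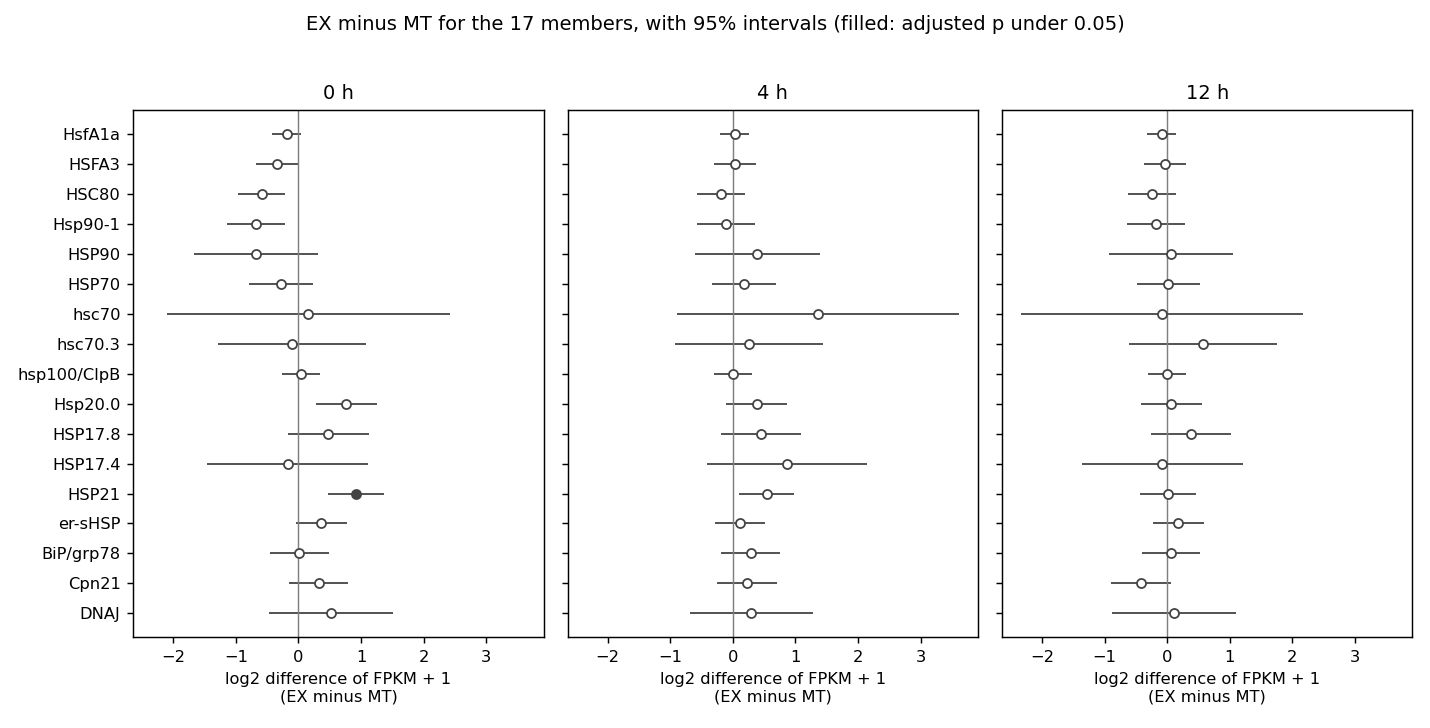
Log2 difference of FPKM + 1 between EX and MT for the 17 members at 0, 4 and 12 h, from left to right. Points are estimates and bars 95% intervals from limma; the one filled point, with an adjusted p under 0.05, is HSP21 at 0 h at 0.92.

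Whether the change over time differed between the lines was tested as an interaction, the change in EX minus the change in MT. By limma 0 members were called at 4 h and 0 at 12 h, beside 0.101% and 0.0224% of all genes. At an unadjusted p under 0.05 there were 0 members at 4 h and 3 at 12 h, namely HSP21, Cpn21 and Hsp20.0, beside 6.50% and 16.5% of all genes. The largest was HSP21, whose interaction of -0.91 (95% interval -1.54 to -0.28, unadjusted p = 0.00746) had a limma adjusted p of 0.225. Cpn21 averaged 74.09 ± 8.32 FPKM in EX and 98.99 ± 8.55 FPKM in MT at 12 h, and 106.5 ± 31.9 FPKM in EX and 85.31 ± 28.1 FPKM in MT at 0 h (SD, n = 3 each). Its interaction was -0.74 (limma adjusted p = 0.270), and that of Hsp20.0 -0.70 (limma adjusted p = 0.298). Calls such as that of HSP90 in MT and not in EX are thus not shown to differ between the lines, with an interaction of 1.08 at 4 h (95% interval -0.33 to 2.48, limma adjusted p = 0.853). Without library 2 of MT at 0 h, the interaction at 12 h was called for Cpn21 and HSP21.

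The spread between libraries of the same group separated the members into steady and unsteady transcripts. The within-group SD of log2(FPKM + 1) was 1.46 for hsc70, larger than in 99.8% of all genes tested. It was 0.818 for HSP17.4, 0.755 for hsc70.3, 0.631 for DNAJ and 0.628 for HSP90, all above the 94th percentile. HsfA1a, at 0.102, was steadier than all but 2.11% of genes, and hsp100/ClpB was at 0.164. The median was 0.289 over the members and 0.239 over all genes.

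Of the 5 members with the widest spread, hsc70, HSP17.4, hsc70.3 and HSP90 deviated together, and DNAJ followed them less closely. Over the 18 libraries, deviations from the group mean had a Pearson r of 0.942 between hsc70 and HSP17.4, 0.905 between hsc70 and hsc70.3, 0.893 between HSP90 and HSP17.4 and 0.82 between HSP90 and hsc70, and DNAJ had 0.521 to 0.66 with these 4. Outside the 5, Hsp90-1 and HSP17.8 had 0.848 and 0.781 with hsc70. The 10 pairs among these 5 genes, which were picked for their spread, had r of 0.521 to 0.942 (median 0.784), and the other 126 pairs of members -0.769 to 0.848 (median 0.215). These values describe libraries that share preparation and depth, and no p is given. Library 3 of MT at 0 h was the clearest case. It held 19.38 FPKM of hsc70, 1.51 FPKM of HSP90 and 0.21 FPKM of HSP17.4, where the other 2 libraries of its group held at least 202.72, 9.33 and 3.84 FPKM.

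At 12 h the first library of each line went the other way. In EX and in MT it had the highest level of its group for 12 and 14 of the 17 members. Such counts were not particular to 12 h. Library 2 was highest for 11 members in EX at 0 h and again at 4 h. In MT, library 2 at 0 h and library 3 at 4 h were each highest for 10. The same was not counted over all genes, and members that deviate together are not separate observations. What differed between the plants or the handling of these libraries was not tested.

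**Figure D4:**
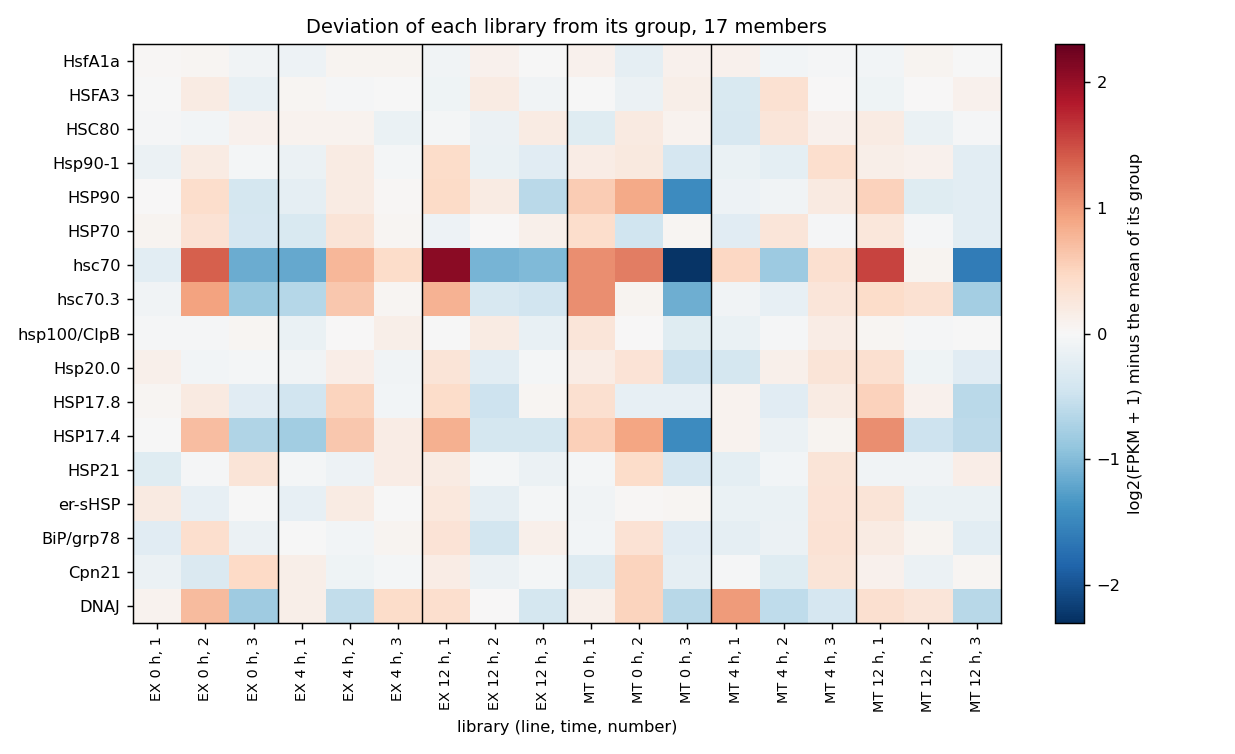
Deviation of each library from the mean of its group, in log2(FPKM + 1), for the 17 members (rows) and 18 libraries (columns). The rows of hsc70, HSP17.4, hsc70.3, HSP90 and DNAJ hold the strongest colours, such as library 3 of MT at 0 h, where the lowest deviation was -2.25.

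**Figure D5:**
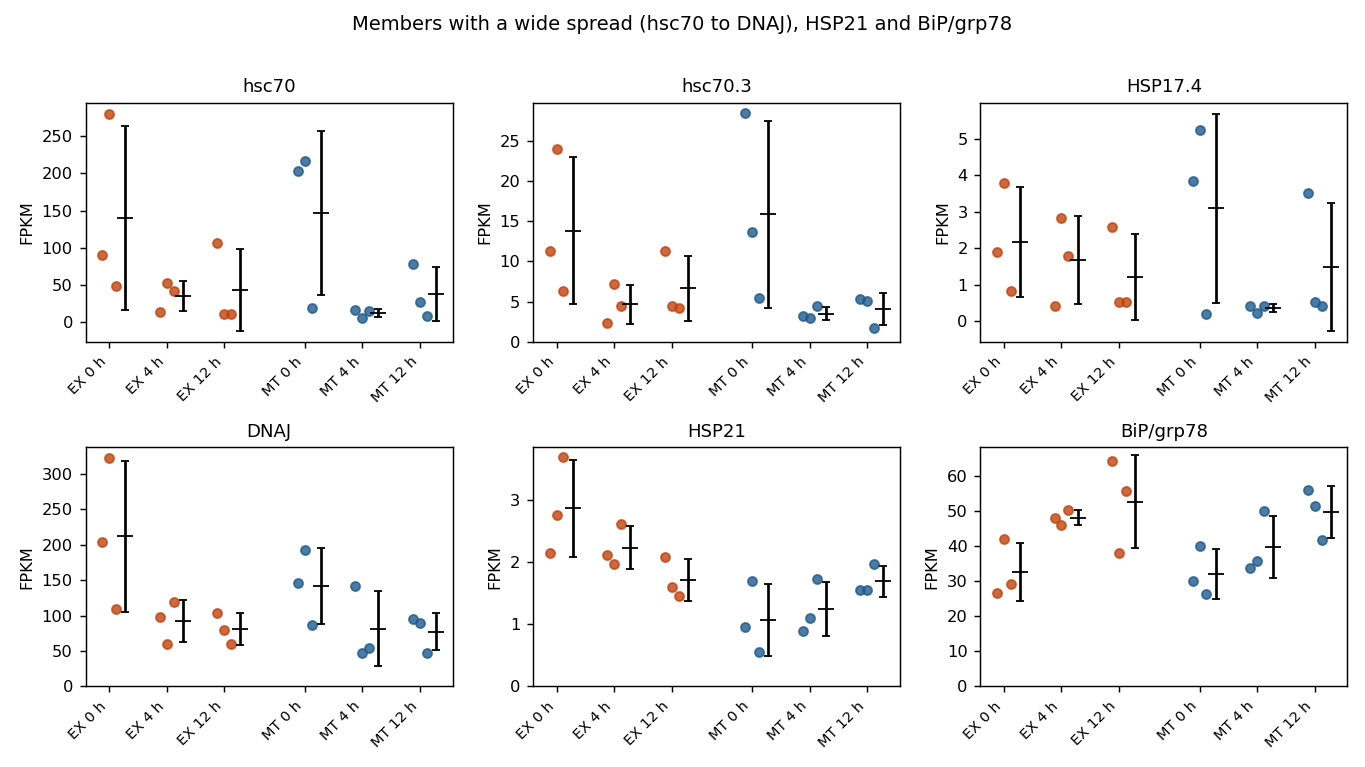
FPKM of hsc70, hsc70.3, HSP17.4, DNAJ, HSP21 and BiP/grp78 in each library by line and time, with EX left of MT and the hours in order. Dots are libraries and black bars the mean and SD of 3 libraries; hsc70 in EX at 0 h runs from 48.06 to 280.29 FPKM.

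A list of other genes of protein folding and quality control was read beside the members. By symbol pattern it held 55 genes, of which 53 were tested. Of these, 33 (31 tested) carried names of folding, quality control or stress response, mainly FKBP proline isomerases. They include genes that are no chaperones, namely the proteases ftsH6 and clpP2 and the bridging factors MBF1, MBF1a, MBF1c and ER24. The rest of the 55 were TCP transcription factors, carotenoid genes and lipocalins that matched the pattern by letters alone. The separation by name was made after the symbols were read. Among the 31, 0 were called higher and 1 (3.23%) lower at 4 h in EX, beside 6.30% and 4.99% of all genes. At 12 h in EX, 0 were called higher and 2 (6.45%) lower, beside 10.1% and 6.54%. The calls in EX were of ftsH6 and ER24. At 4 h in MT, 0 were called higher and 4 (12.9%) lower, beside 6.73% and 7.43%. At 12 h in MT, 6 (19.4%) were called higher and 4 (12.9%) lower, beside 13.2% of all genes called lower and 21.2% called in either direction.

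ftsH6, a thylakoid protease of the FtsH family known in Arabidopsis to act on HSP21, fell in all 4 comparisons. It averaged 1 ± 0.0917 FPKM at 4 h and 1.30 ± 0.138 FPKM at 12 h in EX, against 2.40 ± 1.06 FPKM in EX at 0 h, with log2 differences of -0.72 and -0.52 (limma adjusted p = 0.0104 and 0.0436). In MT it averaged 0.690 ± 0.0458 FPKM at 4 h and 1.04 ± 0.0625 FPKM at 12 h, against 2.14 ± 0.249 FPKM at 0 h (SD, n = 3 each), with differences of -0.89 and -0.62 (limma adjusted p = 0.00229 and 0.0174).

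ER24, a multiprotein bridging factor, fell at 12 h in EX (-1.30, limma adjusted p = 0.0314) and at both times in MT (-1.63 and -1.45, limma adjusted p = 0.0106 and 0.0158). FKBP62a, a co-chaperone that in Arabidopsis binds HSP90, was called lower in MT at 4 h (-0.65, limma adjusted p = 0.0191) and 12 h (-0.52, limma adjusted p = 0.0424). It had 55.42, 102.25 and 83.78 FPKM in MT at 4 h, against 135.39, 128.12 and 106.53 FPKM at 0 h. The lowest and the highest of these values came from the 2 outlying MT libraries. The 6 called higher in MT at 12 h were all FKBP genes, with FKBP13 the largest at 91.45 ± 2.64 FPKM at 12 h and 47.8 ± 31.0 FPKM at 0 h (1.12, limma adjusted p = 0.0217). Its MT libraries at 0 h held 21.70, 82.03 and 39.66 FPKM, the lowest in the outlying library 1. None of the calls of genes on this list was checked by leaving out libraries.

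Between the lines, 1 of the 31 (3.23%) was called, FKBP16-4, higher in EX at 0 h (0.57, limma adjusted p = 0.0290). Beside it, 0.979% of all genes were called higher in EX at 0 h. Over the whole list of 55, the rule for naming also selected genes matched by letters alone. TCP10 rose in both lines at both times by 2.09 to 2.62 on the log2 scale, LCY1, the lycopene cyclase, rose by 1.32 and 1.42 at 4 and 12 h in EX and by 1.12 and 1.31 in MT, TCP13 rose in MT at 4 h by 1.81, and TCP19 fell in MT at 12 h (-1.53) and in EX between 4 h and 12 h (-0.87), by limma.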

How the data were processed

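The deposited table gives FPKM for each gene in each library to 2 decimals, per the file headers, and how the authors computed it is not given there. The 18 columns were matched to libraries by title, and an identical second set of 18 columns was not used. Tools listed in the submitters' processing notes are RSEM 1.2.12, Bowtie2 2.2.5, DESeq2 1.4.5 and HISAT2 2.0.4, without roles and with no genome build. Coordinates are those of the deposited table. Names and chromosome numbers came from RefSeq (SLM_r2.1), which held 21649 of the identifiers and all 17 members. On each sequence of the table, at least 99.64% of matched genes lay on 1 reference chromosome.

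No counts were used here. Depth was estimated from the steps of low FPKM values, of which 91.6 to 94.1% lay within 0.1 of a whole fragment. Counting error is therefore small for abundant members and large for er-sHSP, HSP17.4 and HSP21. It is also large for HSP90 in MT at 4 h, whose libraries held an estimated 11, 12 and 25 fragments.

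The 17870 genes whose mean reached 1 FPKM in any group were fitted as log2(FPKM + 1) with limma 3.58.1 in R 4.3.3 over all 18 libraries and 6 group means, with a mean-variance trend (prior degrees of freedom 3.18). Tests were two-sided, with Benjamini-Hochberg adjustment within each of 11 comparisons. The fit was tested on simulated data. All members are named, with full statistics for those called. The other pathway genes are named by the 2 largest called changes per comparison, plus folding and quality control names singled out after their values were seen. Members, lists and tests were chosen with earlier results of these data known. Alternatives were a pseudocount of 0.1, no filter, median-of-ratios scaling, a replicate block, leaving out each library, and leaving out library 1 of MT at 0 h and at 4 h, which lay apart on the second principal component.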

Additional observations from a re-analysis of the deposited data

How the results depend on the processing

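Of the 19 calls of a member in a comparison, 10 held in every fit that left out 1 library of the groups compared. With the other alternatives added 9 held, and 0 changed direction. These 9 are the 4 calls of hsp100/ClpB, those of HSFA3 except in EX at 12 h, HSP90 in MT at 4 h and Hsp90-1 in MT at 12 h. The count at 12 h against 0 h in EX was 3 with no filter, in place of 5, with Hsp90-1 (limma adjusted p = 0.0607) and BiP/grp78 (0.0623) lost. The count at 4 h against 0 h in MT was 3 without library 1 of MT at 0 h and at 4 h, in place of 5, and the cause of either change was not tested. Leaving out 1 library of the groups compared at a time gave 0 to 2 members at 0 h between the lines. Over time it gave 2 to 4 in EX at 4 h, 1 to 4 in EX at 12 h, 4 to 7 in MT at 4 h and 3 to 6 in MT at 12 h. For the interaction at 12 h it gave 0 to 2. Fits without a library of another group are not in these ranges. Some of them gained calls, such as DNAJ in EX at 12 h without library 1 of MT at 4 h (limma adjusted p = 0.0409). The lowest count, 1 in EX at 12 h, was without library 1 of EX at 0 h, with 2 without library 3 at 12 h; the 3 in MT at 12 h came without library 1 at 0 h and without library 2 or 3 at 12 h. With a pseudocount of 0.1 er-sHSP was lost in EX (limma adjusted p = 0.125 and 0.0555). Median-of-ratios scaling moved the median of all genes by over 0.1 in 1 comparison, the interaction at 12 h, from 0.13 to 0.02, and called 6 and 7 members in MT at 4 and 12 h.

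By replicate number the libraries showed no pairing over all genes, and whether some same-numbered libraries shared a batch was not tested. Deviations of same-numbered libraries correlated at -0.417 to 0.568 (median -0.01), against -0.580 to 0.576 (median 0.02) for other numbers, and 6 of 18 libraries correlated best with their own number. With a replicate block, 1 member was called between the lines at 0 h, 3 and 4 in EX and 6 and 6 in MT at 4 and 12 h, and 0 elsewhere. Under the block BiP/grp78 (limma adjusted p = 0.0684) and Hsp90-1 (0.0578) were lost and DNAJ (0.0439) gained in EX at 12 h, and hsc70.3 was gained in MT at 4 h (0.0408) and 12 h (0.0386). Depth limits er-sHSP most, with at most 20 estimated fragments in a library.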

Other observations

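In the stretch of 18212 bases on chromosome 6 that holds HSP17.8 and Hsp20.0, 3 further genes lie between them, 2 of which RefSeq names as heat shock genes, HSP20-1 and HSP17-6. HSP20-1, a gene outside the symbol rule and under the filter, was chosen after its values were seen. It had 0.62, 0.21 and 0.50 FPKM at 0 h, 0.51, 1.17 and 0.72 FPKM at 4 h and 0.67, 0.52 and 0.31 FPKM at 12 h in EX. In MT, 7 of 9 libraries listed it at 0 and the other 2 at 0.10 FPKM. This corresponds to an estimated 52 fragments over the EX libraries and 2 over the MT libraries. In a fit of all genes with no filter, the log2 difference between EX and MT was 0.79 at 4 h (limma adjusted p = 0.0221), and 0.47 at 0 h and 0.58 at 12 h without a call (0.0604 and 0.173). Its share of reads with the neighbouring small heat shock protein genes was not tested.

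The other genes with RefSeq heat shock names that were tested lie outside the symbol rule too. HSTF24, a class B heat shock factor, averaged 43.96 ± 24.4, 13.96 ± 4.44 and 12.32 ± 6.66 FPKM at 0, 4 and 12 h in EX and 35.96 ± 26.4, 13.74 ± 5.97 and 12.24 ± 5.99 FPKM in MT (SD, n = 3 each), with no call by limma. Hsc70.2, an HSP70, averaged 73.72 ± 50.6, 41.31 ± 14.2 and 67.68 ± 46.7 FPKM in EX and 115.3 ± 31.7, 51.55 ± 19.0 and 46.89 ± 16.9 FPKM in MT, with no call. Their deviations from the group means correlated with those of hsc70 at r of 0.908 for HSTF24 and 0.864 for Hsc70.2 over 18 libraries, as a description. HSP17-6 averaged 4.13 ± 2.03 FPKM in EX at 12 h and 10.52 ± 2.82 FPKM in EX at 0 h, a log2 difference of -1.21 (limma adjusted p = 0.0415, or 0.0603 with no filter).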
